A study of Mus musculus with 4 samples.

Results

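The genes described here are the olfactory receptor (OR) genes of mouse chromosome 2, taken as every protein-coding gene of the mm9 annotation on that chromosome with a symbol that begins with *Olfr*. There were 286 of them among 22367 protein-coding genes, and they made up 25.7% of the 1113 *Olfr* genes of the annotation. Their positions were read from lists of lamina-associated domains (LADs), the stretches of DNA that lie against the nuclear lamina, in primary hepatocytes of WT (*Tm7sf2*+/+) and *Tm7sf2*-/- (KO, named Tm7sf2/NET47 KO in the labels) mice on a C57BL/6 background, aged 12 to 16 weeks. Hepatocytes of both genotypes were plated in serum-free medium with dexamethasone, insulin and EGF, exposed for 24 h, with polybrene, to lentiviral vectors that carried either Dam-LaminB1 or Dam alone, and harvested 60 h after transduction. This gave 4 libraries, 1 of each construct per genotype, and each library held the pooled DNA of 4 mice.

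The following limits hold for every value. With 1 library pair per genotype there is no spread between animals, so no difference between WT and KO carries a test or an error. The lists hold intervals without a signal or a read number, and the paper states that the KO was sequenced less deeply than the WT, so that a border may be placed less finely in the KO. A list also cannot tell a contact made in fewer cells from a weaker contact in all of them, and the lentivirus reaches only part of the plated cells.

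OR genes encode the G protein-coupled receptors with which sensory neurons of the nose detect odorants. Each neuron is known to express a single OR allele, and the genes sit in tandem arrays that are silent in other tissues. The receptors of chromosome 2 belong to class II, the large group typical of land vertebrates. In many cell types OR arrays are found in heterochromatin at the nuclear periphery, and the lamin B receptor *Lbr*, of which *Tm7sf2* is a paralog, is known to be kept low in olfactory neurons, where OR genes gather away from the nuclear envelope (NE). Hepatocytes do not use these receptors, so the comparison asks where silent gene arrays lie when *Tm7sf2* is lost.

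In WT, the whole span of all 286 genes lay inside LADs. In KO, 274 of them (95.8%) still lay wholly inside LADs, 9 lay wholly outside and 3 were cut by a LAD border. No gene could gain LAD bases in KO, since each was already wholly inside LADs in WT. Over all protein-coding genes, 19.8% lay wholly in WT LADs, 21.9% wholly in KO LADs and 15.7% wholly in LADs of both genotypes, while 69.6% had no base in a WT LAD and 58.3% none in a KO LAD. The share of the span in LADs fell from WT to KO for 12 of the 286 genes (4.20%), beside 8.29% of all genes. It was larger in KO for 0 of them, as it had to be from 100% in WT, beside 20.0% of all genes. The 69.6% of all genes with no WT LAD base could not lose any, so 8.29% is not the share among genes that could. Taken over their summed span of 416.7 kb, the OR genes went from 100% in WT LADs to 96.1% in KO LADs.

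Differential regions (DRs) are the stretches of at least 10 kb that are in the LADs of only 1 genotype. A gene with 1 base or more in a WT-only DR is called PI (peripheral to interior), a gene that overlaps a KO-only DR is called IP (interior to peripheral), and a gene with both is ambiguous (AMB). The remaining genes are called PP (peripheral in both) if a LAD overlaps them in both genotypes, and otherwise II. By these rules 274 of the OR genes of chromosome 2 were PP, beside 17.9% of all protein-coding genes, and 10 were PI (3.50%), beside 5.43% of all genes. A further 2 were called II, beside 56.6% of all genes. There were 0 IP genes, beside 17.1%, and 0 AMB genes, beside 2.96%. Both counts were fixed beforehand, since a gene wholly inside WT LADs cannot overlap a KO-only DR. The 2 genes called II were nevertheless inside a WT LAD. The KO gaps over them were shorter than 10 kb, so that they counted neither as a DR nor as a LAD. When each gene was widened to a window of 100 kb around its middle, 70 of the genes (24.5%) were PI, beside 9.71% of all genes in the same window, and 75.5% were PP, beside 15.0%. In that window 0 were IP, AMB or II, beside 27.1%, 6.06% and 42.2% of all genes. A gene or window without a WT LAD cannot be PI. The PI shares of all genes are thus not those of genes that lay in WT LADs, as all 286 did.

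**Figure D1:**
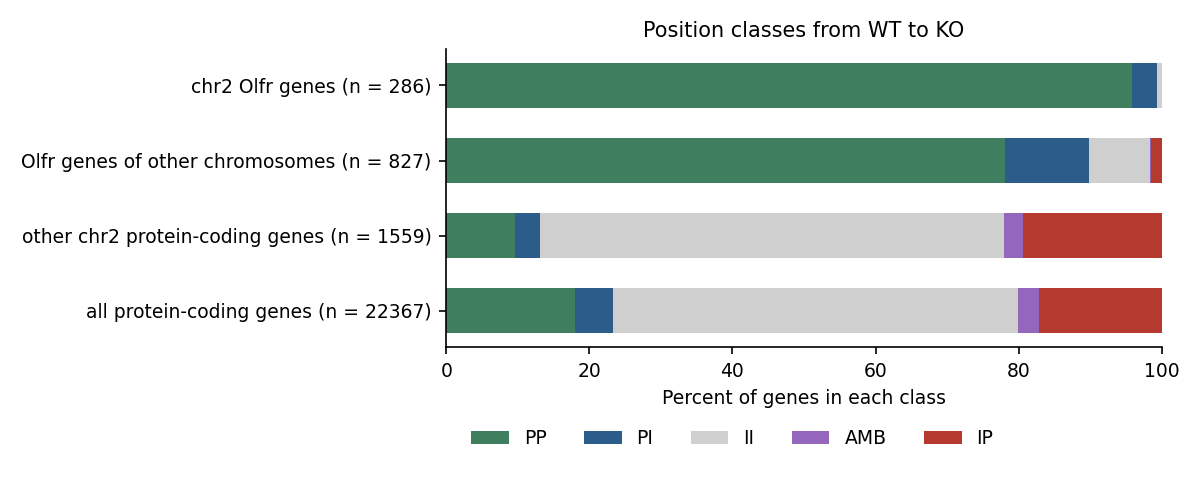
Percent of genes in each position class (x axis, 0 to 100%) for the chromosome 2 *Olfr* genes, the *Olfr* genes of other chromosomes, the other protein-coding genes of chromosome 2 and all protein-coding genes. PP makes up 95.8% of the chromosome 2 *Olfr* genes and 9.62% of the other genes of the same chromosome.

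The other genes of the same chromosome were placed differently. Of 1559 other protein-coding genes of chromosome 2, 150 (9.62%) were PP, 1011 (64.8%) II, 303 (19.4%) IP, 55 PI and 40 AMB. These genes also have longer annotated spans, with a median of 20.0 kb against 0.951 kb for the OR genes. A longer span has more bases at which to meet a DR. The 827 *Olfr* genes of other chromosomes, which have a like span of 0.966 kb at the median, were PP in 78.1% of cases, PI in 11.7%, II in 8.46% and IP in 1.57%. Genes of a cluster share LADs and are not independent of each other, and none of these differences was tested.

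The 286 genes fell into 3 clusters when runs of neighboring *Olfr* genes were split at distances over 1 Mb. The proximal cluster (28 genes, *Olfr338* to *Olfr368*) spanned chr2:36232298-37188253, the central cluster (221 genes, *Olfr987* to *Olfr1272*) spanned chr2:85171054-90122730, and the distal cluster (37 genes, *Olfr1275* to *Olfr1318*) spanned chr2:111070975-111997157, all in mm9. They held 29.3, 44.6 and 39.9 OR genes per Mb. As annotated, most genes were short: 234 had a single exon, and the median span was 0.951 kb. The longest was *Olfr140* with 12.2 kb. For many genes, such as *Olfr338* with 921 bp, the annotated span is the coding sequence alone. Any untranslated exons lie outside such a span. On the plus strand there were 109 genes and on the minus strand 177. The annotation also lists 63 *Olfr*-named genes of other biotypes on chromosome 2 (62 of them pseudogenes), of which all 63 lay wholly in WT LADs and 60 wholly in KO LADs.

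**Figure D2:**
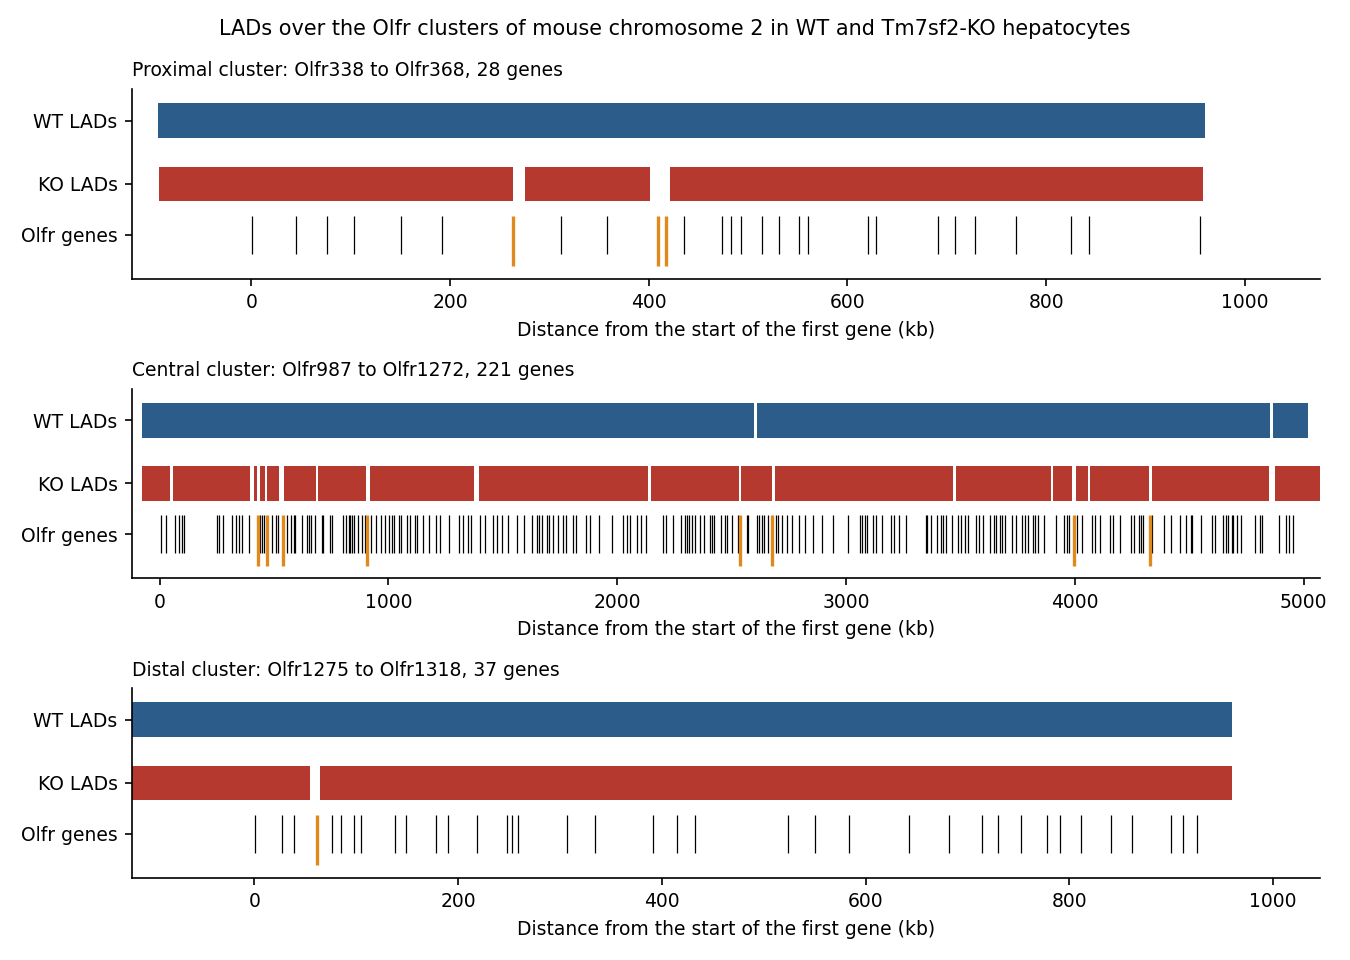
WT LADs (blue), KO LADs (red) and *Olfr* genes (vertical lines) along the 3 clusters; the x axis is the distance in kb from the start of the first gene of the cluster. Orange lines are the 12 genes not wholly in a KO LAD. The WT bars are broken at 2 places and the KO bars at 20. LADs that overlap no part of a cluster are not drawn, such as the second WT LAD above the central cluster.

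The WT LADs over the clusters were long. A single WT LAD of 1053.8 kb held all 28 genes of the proximal cluster, and a single WT LAD of 1876 kb held all 37 genes of the distal cluster. The central cluster lay in 3 WT LADs of 2676.4, 2242.5 and 156.5 kb, which held 120, 97 and 4 genes. In KO the same clusters were overlapped by 3, 2 and 18 LADs. The longest of these, 895.2 kb in the distal cluster, held 33 genes, and the next longest, 780.4 and 739.1 kb in the central cluster, held 30 genes each. A larger number of LADs in KO was not particular to the clusters. The whole lists held 8107 LADs in WT and 16076 in KO, and chromosome 2 held 440 and 968. LADs covered 100% of the proximal cluster in WT and 96.7% in KO, 99.6% and 95.1% of the central cluster, and 100% and 99.0% of the distal cluster.

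The outer borders of the arrays were close to those of the LADs at some ends. At the lower end of the proximal cluster the WT LAD began at 36138481 and the KO LAD at 36139079, 0.598 kb apart. The outermost *Olfr*-named gene on that side, the pseudogene *Olfr334-ps1*, began 2.07 kb inside the WT border and 1.47 kb inside the KO border. At the upper end, *Olfr368* ended 4.03 kb before the WT border and 2.23 kb before the KO border. The flanking genes *Ptgs1* (cyclooxygenase 1) and *Pdcl* (phosducin-like) were both II, 30.7 and 13.3 kb outside the WT LAD. The LAD of the proximal cluster thus started and stopped between the OR array and its neighbors in both genotypes.

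Both genotypes also had nearly the same border above the distal cluster, 33.6 kb past *Olfr1318*, where the WT and KO positions differed by 47 bp. The 107 bases of chr2:112030710-112030816 (mm9, plus strand) that hold both borders are shown because they are the closest match between the genotypes at these clusters. The capitals mark the GATC sites, where Dam methylates and *DpnI* cuts, at the KO border (left) and the WT border (right).
distal upper border: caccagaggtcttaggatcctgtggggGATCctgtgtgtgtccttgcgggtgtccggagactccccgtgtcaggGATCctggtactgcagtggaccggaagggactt
Below the distal cluster the WT LAD ran on unbroken for 916.2 kb beyond *Olfr1275*, while the KO LAD broke off after 452 kb. Of the 464.2 kb between those borders, 83.0% lay in 4 further KO LADs and 78.7 kb lay in none. Above the central cluster the KO LAD ended 68.5 kb further on than the WT LAD, at 90260009. Most of that stretch (74.9%) lay in a second WT LAD, so that the genotypes differed there by a WT gap of 17.2 kb that a KO LAD covered. Below that cluster the borders were 2.44 kb apart.

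A LAD border in these lists sits at a GATC site, and all 56 borders of the LADs over the clusters did. The median OR gene held 3 such sites, and 3 genes held none, so the position of a single gene rests mostly on sites outside it.

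The KO LADs over the clusters were separated by 20 gaps, of which 19 lay wholly inside a WT LAD. The gaps measured 8.33 to 25.5 kb with a median of 13.1 kb. They took up 4.17% of the cluster bases and touched 4.20% of the genes, so genes were met about as often as their surroundings. Of the gaps, 11 touched an OR gene and 9 did not. A single OR gene was touched by 10 gaps, and a pair by 1 gap. At 29.3 to 44.6 OR genes per Mb, gaps of this length can seldom reach 2 genes. In WT there were 2 gaps, both in the central cluster and neither over an OR gene. The 1 at chr2:87770230-87779877 (9.65 kb) was covered by a LAD in KO, and the other, at chr2:90022400-90034987, lay within a KO gap of 25.5 kb.

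**Figure D3:**
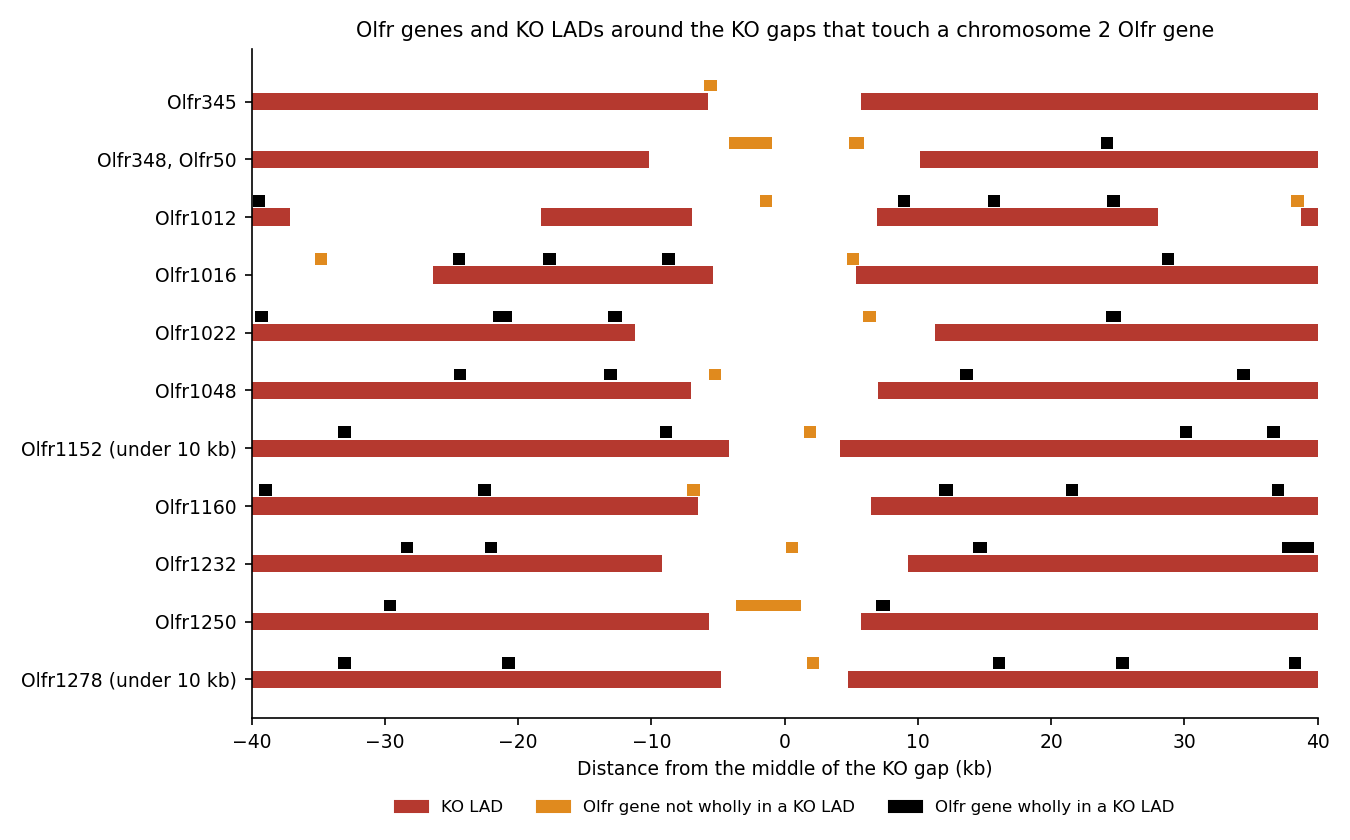
KO LADs (red) around the 11 KO gaps that touch an *Olfr* gene, each row centered on its gap (x axis, distance from the middle of the gap in kb), with the *Olfr* genes above them. The 12 genes in orange are not wholly in a KO LAD, and *Olfr348* and *Olfr50* share a gap.

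In the proximal cluster 3 of 28 genes were PI. *Olfr348* (chr2:36639796-36642988) and *Olfr50* (chr2:36648758-36649888) went from 100% of their span in a WT LAD to 0% in KO, in a shared gap of 20.4 kb that began 6.03 kb from the former and ended 4.25 kb from the latter. *Olfr345* (chr2:36495561-36496496) kept 34.9% of its span in a KO LAD. With 10.7% of its genes affected, this cluster had the highest share of the 3, although that share rests on 2 gaps.

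In the central cluster 7 of 221 genes were PI and 1 more, *Olfr1152*, was lost from LADs without a DR. *Olfr1012* (chr2:85599596-85600531), *Olfr1016* (chr2:85639496-85640425) and *Olfr1022* (chr2:85708751-85709698) lay within a stretch where 4 KO gaps followed each other, from 85564364 to 85714115. *Olfr1012* and *Olfr1022* had 0% of their span in KO LADs and *Olfr1016* had 22.0%. Next to them, *Olfr1020* stayed in a KO LAD with the border only 0.955 kb away.

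Further along the central cluster, *Olfr1048* (chr2:86076028-86076990), *Olfr1232* (chr2:89165400-89166335) and *Olfr1250* (chr2:89496552-89501373) each lay wholly in a gap of their own, of 14.0, 18.5 and 11.4 kb. The nearest KO LAD was 1.30, 8.22 and 2.08 kb away. *Olfr1160* (chr2:87845974-87846933) lost only 16.9% of its span. *Olfr1152* (chr2:87708150-87709082) lay wholly in a KO gap of 8.33 kb. The 4 other protein-coding genes inside the central cluster, 4833423E24Rik, *Pramel7*, *Pramel6* and *Gm4222*, stayed wholly in LADs in both genotypes.

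In the distal cluster 0 of 37 genes were PI. Only *Olfr1278* (chr2:111132427-111133368) left the KO LADs, in a gap of 9.49 kb, and the remaining 36 genes were PP.

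In 3 of the genes a KO border fell inside the single coding exon, at a GATC site of the receptor's own sequence. These sites are shown because they are where the segmentation placed a KO LAD border within a gene. Whether contact with the lamina changes at the sites themselves was not tested. Each line gives 60 bases of mm9 on the coding strand of the gene, with the GATC of the border in capitals.
*Olfr345* (plus strand, chr2:36495858-36495917): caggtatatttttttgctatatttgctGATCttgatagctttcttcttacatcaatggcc
*Olfr1016* (minus strand, chr2:85640191-85640250): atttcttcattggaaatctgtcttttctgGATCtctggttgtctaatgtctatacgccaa
*Olfr1160* (minus strand, chr2:87846742-87846801): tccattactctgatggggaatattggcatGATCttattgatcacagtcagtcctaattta
The KO LAD kept the first 327 of 936 bp of *Olfr345* and the first 205 of 930 bp of *Olfr1016*, that is the 5′ part of each gene. In *Olfr1160* it kept the 3′ part and left out the first 162 of 960 bp. In WT these sites were inside LADs, 357.1, 545.6 and 66.1 kb from the nearest WT border as measured from the gene.

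In WT most genes lay far from a LAD border, whether or not they were wholly in KO LADs. The distance from a gene to the nearest border of its LAD had a median of 566.1 kb in WT and, for the 274 genes still wholly in LADs, 95.9 kb in KO. The WT median was 568.9 kb for those 274 genes and 515.7 kb for the other 12. In WT 258 of 286 genes were at least 100 kb from a border, and in KO 189 of 274 were at least 50 kb from one. *Olfr1082*, 1331.3 kb from a border, and *Olfr1080*, at 1299.5 kb, lay deepest in WT, while *Olfr1155* at 2.96 kb and *Olfr368* at 4.03 kb lay nearest to a border. In KO, *Olfr1301* at 435.4 kb and *Olfr1302* at 409.3 kb lay deepest. Beside *Olfr1020*, *Olfr1251* at 1.17 kb lay nearest to a KO border, and 18 of the retained genes were within 10 kb of one. The 5 receptors of these clusters that appear with an array probe in the part of the paper's gene table used here, *Olfr154*, *Olfr74*, *Olfr73*, *Olfr1264* and *Olfr140*, were wholly in LADs in both genotypes, 14.6 to 158.3 kb from a KO border.

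The 12 genes that left KO LADs in whole or in part had sequence features within the range of the other 274. Their median GC content was 41.6% against 41.0%, and their median number of GATC sites was 5 against 3. Receptors of a cluster are often near copies of each other, and reads from near copies can be hard to place. The coding sequence of the closest other *Olfr* gene was identical over a median of 85.4% of bases for the 12 genes and 86.2% for the 274, and for 280 of the 286 that closest gene was also on chromosome 2. The pair *Olfr1049* and *Olfr1051*, 98.7% identical, was PP. Among the 12, *Olfr1250* was highest at 96.7%, to *Olfr1252*. The part of read mapping or of the lower KO depth in the gaps was not tested.

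The gaps themselves had a median GC content of 37.2%, from 34.8% to 43.7%, where the clusters together had 37.4% and chromosome 2 had 42.1%. A GATC site came every 411.4 bases in the gaps and every 362.3 bases in the clusters. Each gap held 9 to 72 GATC sites, with a median of 34.5, so each gap in the KO LADs covers several *DpnI* fragments.

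The territory of the clusters was set beside other WT LAD territory. Of the cluster bases in WT LADs, 96.0% were also in KO LADs, against 91.7% for the rest of chromosome 2, 87.9% for *Olfr* clusters of other chromosomes and 86.8% for all chromosomes except chromosome 2. Interior KO gaps came at 2.79 per Mb of WT LAD in the clusters, 3.95 per Mb in the rest of chromosome 2 and 4.95 per Mb on the other chromosomes. The 3 clusters differed among themselves, with 2.09, 3.25 and 1.08 gaps per Mb in the proximal, central and distal cluster. Short WT LADs can be lost whole, and whether LAD length has a part in these differences was not tested. Among the 322 WT LADs of at least 1 Mb, the 4 that hold these genes kept 96.8%, 96.7%, 95.3% and 94.4% of their bases in KO LADs. The other 318 kept a median of 93.7%, with the middle of the distribution between 91.2% and 95.9%. All 4 thus lay above that median without standing outside the distribution, and the values of 95.3% and 94.4% were inside its middle.

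The position of the chromosome 2 genes was compared with that of *Olfr* genes elsewhere. Chromosome 9 was most like it, with 96.1% of its 129 *Olfr* genes PP, and chromosome 10 had 92.6% of 68. On chromosome 7, which has 240 *Olfr* genes, 87.9% were PP and 6.25% PI. On chromosome 19, 41.5% of 65 genes were PP and 49.2% PI, and on chromosome 4, 33.3% of 24 were PP. Chromosome 15 had 33.3% of 9 genes PP and 55.6% PI. On chromosome 11, 59.3% of 81 genes were PP and 22.2% PI. Chromosome 2 had the most *Olfr* genes of any chromosome. Its high share of PP genes was also seen on chromosomes 9 and 10, but not on chromosomes 11 and 19.

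**Figure D4:**
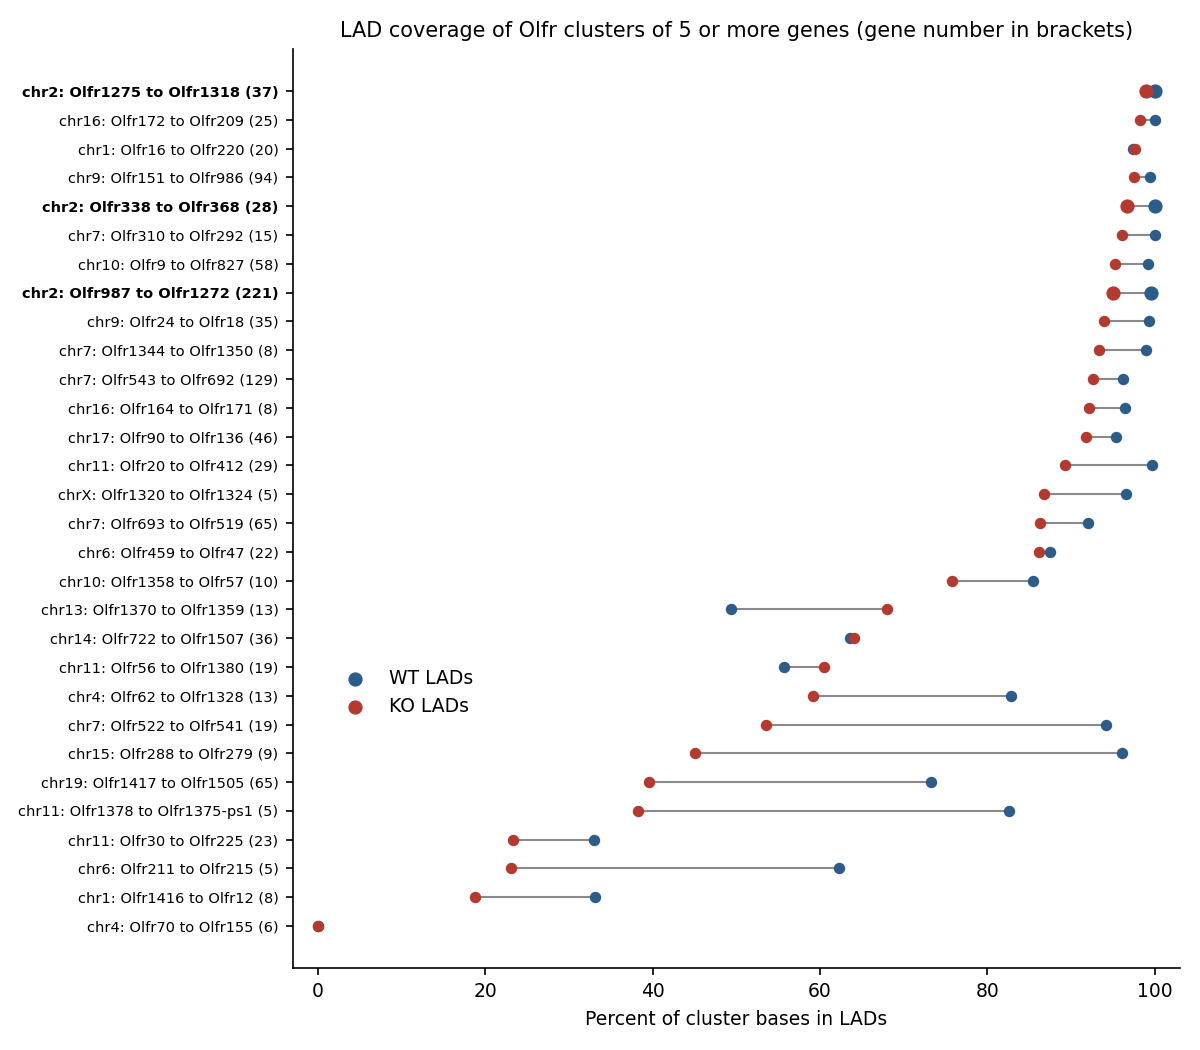
Percent of cluster bases in WT LADs (blue) and KO LADs (red) for the 30 *Olfr* clusters of at least 5 genes, ordered by KO coverage, with the number of genes in brackets. The 3 clusters of chromosome 2 (bold) are between 95.1% and 99.0% in KO, and the clusters below them reach down to 0%.

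There were 30 *Olfr* clusters of at least 5 genes in the genome. By coverage in KO LADs the distal, proximal and central clusters of chromosome 2 ranked 1, 5 and 8. The 27 clusters on other chromosomes had a median of 94.2% in WT LADs and 86.2% in KO LADs, and 5 of them were at least 95% in KO LADs, among them *Olfr172* to *Olfr209* on chromosome 16 at 98.2% and *Olfr151* to *Olfr986* on chromosome 9 at 97.5%. The change from WT to KO was -1.03, -3.33 and -4.47 percentage points in the distal, proximal and central clusters, and ranged from -51.0 to 18.7 points in the others.

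Base composition also differed among the clusters. Across the 30 clusters, GC content and KO LAD coverage had a Spearman's rho of -0.846, and GC content and WT LAD coverage one of -0.772. This is a description over clusters that share the same 2 lists, and the neighboring DNA of a cluster is not independent of it. The 3 clusters of chromosome 2 had 39.2%, 37.0% and 37.6% GC, within the 36.0% to 39.2% of all 8 clusters that were at least 95% in KO LADs. The 7 clusters under 50% in KO LADs had 39.2% to 46.7%. The cluster of chromosome 19, at 39.2% GC, was 39.5% in KO LADs, where the proximal cluster at 39.2% GC was 96.7%. Within chromosome 2 the central cluster had both the lowest GC content and the lowest KO LAD coverage.

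**Figure D5:**
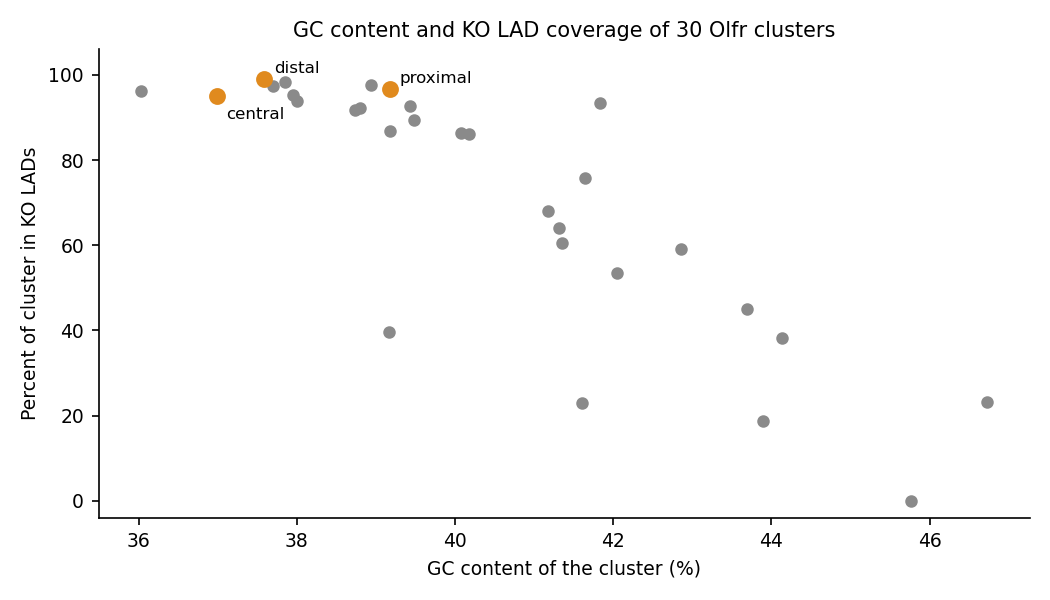
GC content (x axis, %) and percent of bases in KO LADs (y axis) of the 30 *Olfr* clusters. The 3 clusters of chromosome 2 (orange) lie at 37.0% to 39.2% GC, with at least 95.1% in KO LADs.

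Genes that act with the receptors were looked up as a list of 24, holding the odor signaling chain, receptor chaperones and regulators of receptor choice. Of these, 13 were II, 6 IP, 3 AMB, 1 PI and 1 PP, and 0 lay wholly in WT LADs, beside 19.8% of all genes. The shares of II (54.2%) and PI (4.17%) genes were near those of all genes (56.6% and 5.43%). The shares of IP (25%) and AMB (12.5%) genes were larger than those of all genes (17.1% and 2.96%). The share of PP genes (4.17%) was smaller than that of all genes (17.9%). With 24 genes these shares rest on few genes, and none of the differences was tested. The genes of this list are long, with a median span of 37.8 kb. All of that length must lie in LADs for a gene to count as wholly inside. *Adcy3* (adenylyl cyclase of odor signaling) was IP with 26.0% of its span in KO LADs and 0% in WT LADs. *Cnga2* and *Cnga4*, subunits of the olfactory cyclic nucleotide-gated channel, had 0% in WT and 100% in KO. They lay 1.89 and 7.92 kb from a WT LAD. *Cngb1*, another subunit of that channel, was II with 0% in both genotypes. *Omp* (olfactory marker protein), *Rtp1* and *Rtp2* (receptor transporters) and *Lhx2* (homeodomain regulator of OR genes, also on chromosome 2) were II. *Ebf1*, whose product binds OR promoters, went from 91.5% to 54.5% and was PI. *Lbr* itself was IP and went from 0% to 100%.

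For the cell type, the lists hold positions and no expression. Of 8 genes typical of hepatocytes, 7 were found in the annotation under the symbol used, and 6 of these (*Alb*, *Apoa1*, *Apob*, *Hnf4a*, *Fgb* and *Ahsg*) had no LAD base in either genotype, as did 56.0% of all protein-coding genes. For *Cps1* (urea cycle), 11.8% of the span was in a LAD in WT and 1.01% in KO.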

How the data were processed

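DamID marks DNA near the lamina through methylation of GATC sites by Dam fused to lamin B1, with Dam alone as the accessibility control. The authors mapped reads to mm9, computed for each *DpnI* fragment a log2 ratio, fusion over control, and segmented these values into LADs with DNAcopy (circular binary segmentation, defaults). The submitters' processing notes name BWA and limma. The 4 deposited interval lists (WT LADs, KO LADs, and the DRs obtained by subtraction of one from the other) hold start and end positions in bases, with no signal per interval, and were used as deposited.

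Positions are printed 1-based. Genes are those of GENCODE for NCBIM37, the assembly of mm9. Covered bases, gene classes and clusters were computed with Python 3.11.15 and numpy 2.4.6, sequences with pysam 0.24.0, coding-sequence identity (identical bases over the length of the query) with blastn of BLAST+ 2.17.0, and figures with matplotlib 3.10.9. Overlap and class assignment were first tested on simulated intervals with known answers. Named genes were every PI or AMB gene, the end genes of each cluster, the genes nearest to and farthest from a LAD border, receptors with an array probe in the paper's table, and the lists given in the text. The genes *Olfr1152* and *Olfr1278*, the pseudogene, flanking genes and near-identical pairs were named after their values were seen. Members and lists were chosen with earlier results of these data known. No test was made, since each genotype has 1 pooled library pair. Alternatives changed the overlap, the minimum lengths, the joining of LADs, the gene list and the clusters.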

Additional observations from a re-analysis of the deposited data

How the results depend on the processing

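Of 97 values under another setting, 86 stayed within a factor of 1.5, and 11 moved further. Some of the 86 had little or no room to move. Among these were the IP and AMB shares at 0% and the WT coverage at 100%. The share of chromosome 2 OR genes called PP also stayed within that factor. It ran from 75.5% with the 100 kb centered on each gene to 100% with LADs joined across gaps of up to 50 kb. The share called PI was 24.5% (70 genes) with the 100 kb centered on each gene, 1.05% (3 genes) with DRs of at least 20 kb, and 0% with LADs joined across gaps of up to 50 kb, which closes every KO gap in the clusters. The share called II was 0% with the 100 kb window, with DRs of any length and with joined LADs, 2.10% (6 genes) with DRs of at least 20 kb, and 1.54% (1 of 65 genes) without the central cluster. For the other protein-coding genes of chromosome 2, PP was 17.96% when at least 50% of the span was asked for in a DR and 15.4% with joined LADs. Splitting at distances over 100 kb gave 5 clusters. No paired analysis was possible because each genotype has 1 library pair and no value comes from a test. The shortest LAD in either list measured 10.002 kb and the shortest gap between LADs 8.001 kb, so a shorter release of a single OR gene would not appear in them.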
